A study of Mus musculus with 6 samples.

Results

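The regulators of G protein signalling (RGS proteins) described here are 10 genes, Rgs2, Rgs3, Rgs4, Rgs7, Rgs9, Rgs10, Rgs12, Rgs16, Rgs17 and Rgs19, taken by symbol from the 23179 gene rows measured. Each of the 10 symbols was on exactly 1 row. RNA sequencing was done on pancreatic islets, small organs of endocrine cells within the pancreas. The donors were male C57BL/6J animals, 10 to 14 weeks old, that were either wild type (WT, 3 libraries) or homozygous for loss of Ffar3 (KO, genotype Ffar3-/-, 3 libraries), the gene of a receptor for short-chain fatty acids. Each library came from islets pooled from 2 pancreata, so a library is not 1 animal. The loss is not described as limited to islets, and the sources used here do not say whether WT mice were littermates.

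RGS proteins end G protein signals. A receptor loads the alpha subunit of a G protein with GTP, and the RGS domain speeds the hydrolysis of that GTP, so that the subunit returns to its resting state. Members fall into subfamilies by sequence: the small R4 proteins (Rgs2, Rgs3, Rgs4 and Rgs16), the R7 proteins that need the partner subunit Gnb5 for stability (Rgs7 and Rgs9), the R12 proteins (Rgs10 and Rgs12) and the RZ proteins (Rgs17 and Rgs19). Ffar3 signals through the inhibitory class of G proteins (Gi and Go), which most RGS proteins act on. In beta cells, inhibitory G proteins lower insulin secretion, and the Gq class, on which many R4 proteins also act, raises it.

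Expression is given as FPKM, fragments scaled by transcript length and library size, which permits levels of different genes to be set side by side. Ffar3 was at 4.69, 5.26 and 6.68 FPKM in WT replicates 1 to 3. The KO tables list it at 0 for replicates 1 and 2 and at 0.105 for replicate 3, which matched every label. Total read depth is unknown. From the commonest ratio among values under 0.06 FPKM, 1 FPKM stood for 59.6% as many fragments in KO replicate 3 as in WT replicate 1, for 89.4% in KO replicate 2 and for 108% to 119% in the others. Summed transcripts of 21 acinar genes, from the enzyme-secreting cells around islets, were 28632 to 44919 FPKM in WT, and KO replicates 1 to 3 gave 26743, 267649 and 570118. Summed markers of B and T lymphocytes (10 genes) spanned 7.17 to 7.87 FPKM in WT, against 42.8, 99.4 and 11.1 for the KO libraries in that order. Cd79a alone gave 6.60 to 7.42 FPKM of the WT sums, and 15.8, 28.0 and 7.60 of the KO sums. The lymphocyte sum thus understates how far the other markers differed. The acinar and lymphocyte sums are given again where they bear on a member. The beta cell hormone gene Iapp was at 27415 to 36606 FPKM in all libraries, while Ins2 was listed at 0 throughout. Ins1 was listed at 0 in 4 libraries, but KO replicate 2 held 43721 FPKM of it and KO replicate 3 held 48334. Those KO libraries also had the highest acinar sums. Whether the zeros reflect a lack of insulin transcripts was not tested, so the label of islets rests on other markers. In whole islets, fewer cells of a type and less RNA per cell cannot be told apart.

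Of the 10 genes, 9 averaged 1 FPKM or more across the libraries and were tested with limma on log2(FPKM + 1), with Benjamini-Hochberg adjustment over all 11669 genes tested and a threshold of 0.05. Rgs2 and Rgs17 rose in KO, Rgs3, Rgs7, Rgs9 and Rgs16 fell, and Rgs4, Rgs10 and Rgs19 did not pass. That is 6 of 9, where 39.9% of all tested genes were called, 20.3% (2368) higher and 19.6% (2289) lower. With libraries scaled to one sum over non-acinar genes, 1178 of all tested genes were higher and 1779 lower. With Ins1 and Ins2 also left out of that sum, 2019 were higher and 1768 lower. The median log2 difference was -0.01 over the 9 genes and -0.01 over all tested genes. In 6 of the 9 the KO libraries lay wholly above or below the WT libraries (3 above, 3 below), which held for 56.3% of all tested genes. The smallest p that an exact two-sided permutation test can give for 3 against 3 libraries is 0.1, and those 6 genes reached it, as did Rgs12, which was not tested across genes.

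**Figure D1:**
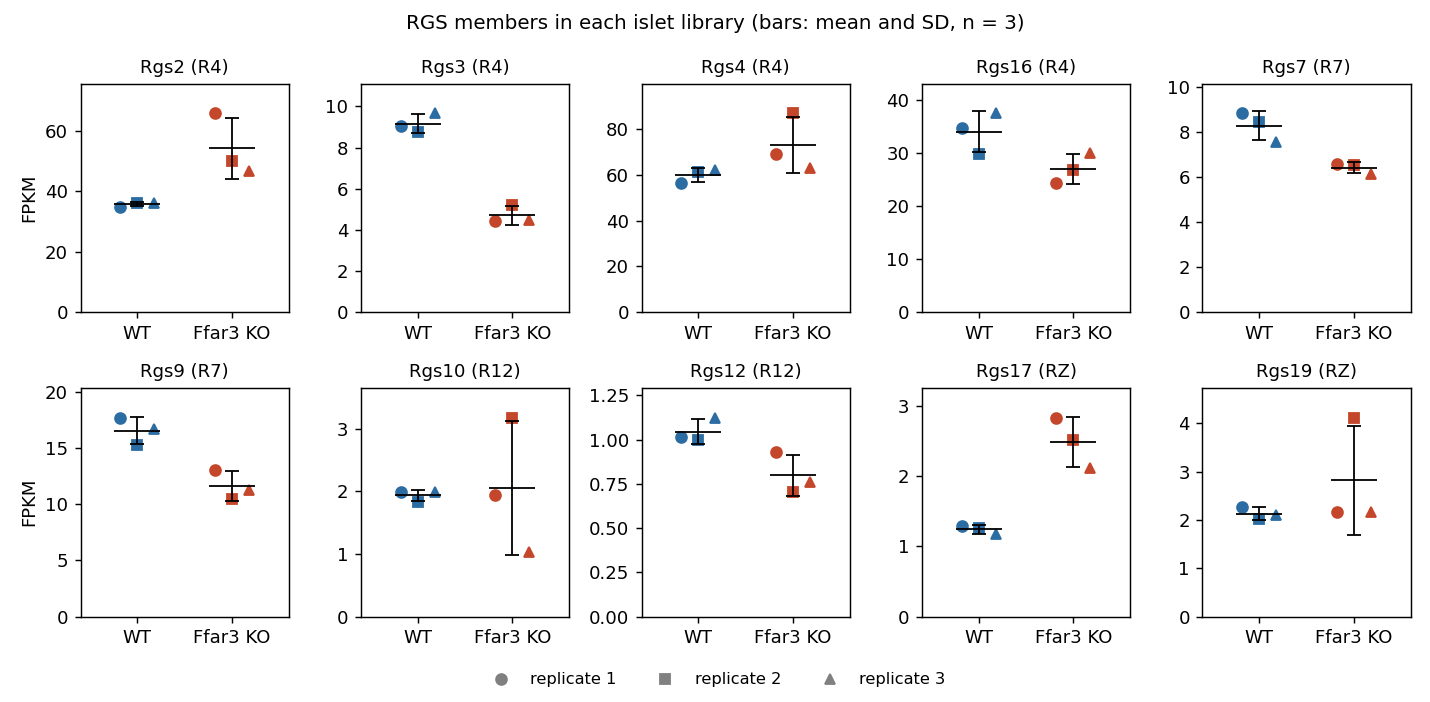
FPKM of the 10 RGS genes in each library (y axis, from 0), with WT libraries in blue, Ffar3 KO libraries in red, a symbol for each replicate number, and bars for mean and SD (n = 3). Rgs3 is near 9 FPKM in WT and near 5 in KO without overlap, Rgs2 and Rgs17 lie higher in all KO libraries, and for Rgs10 and Rgs19 KO replicate 2 stands above the other libraries.

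In WT islets Rgs4 had the highest level of the members, at 59.9 ± 2.95 FPKM (mean ± SD, n = 3). Rgs2 (35.6 ± 0.649) and Rgs16 (34.0 ± 3.86) followed, and their libraries overlapped. Rgs9 stood at 16.6 ± 1.22, and Rgs3 (9.15 ± 0.461) and Rgs7 (8.30 ± 0.643) overlapped below it. Rgs19, Rgs10, Rgs17 and Rgs12 had WT means between 1.05 and 2.13 FPKM, in that order and without overlap between neighbours. In KO the same 4 genes led. Rgs4 and Rgs2 overlapped there, Rgs2 and Rgs16 no longer did, and Rgs7 lay above Rgs3 in every library. The 10 genes together summed to 170 ± 5.10 FPKM in WT and 185 ± 15.2 in KO, with overlap between the groups, so the members differed more in their proportions than in their sum.

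Among the R4 genes, Rgs2 rose. Rgs2 acts mainly on Gq, is known for rapid induction by cAMP and calcium signals, and also inhibits adenylyl cyclases directly. It was at 34.9, 36.0 and 36.0 FPKM in WT replicates 1 to 3 and at 65.6, 49.9 and 46.7 in KO replicates 1 to 3. The WT libraries were nearly alike, every KO library was higher, and KO replicate 1 was the highest. The KO mean was 1.52 times the WT mean (log2 difference 0.57, SE 0.12, limma adjusted p = 0.011). KO replicate 1 is also the KO library whose acinar sum was below that of each WT library, and set alone against WT it gave a log2 difference of 0.86 (adjusted p = 0.00094). A fit with the mean log2 acinar level as a further term gave 0.80 (adjusted p = 0.00094). The call was lost when all libraries were scaled to one sum over non-acinar genes (0.47, adjusted p = 0.086), and leaving Ins1 and Ins2 out of that sum as well restored it (0.57, adjusted p = 0.026).

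Rgs3 fell most of the 9 tested. Its longest products add other domains to an RGS domain that acts on Gi and Gq subunits. Its values were 9.06, 8.75 and 9.65 FPKM in the WT libraries and 4.42, 5.22 and 4.47 in KO replicates 1 to 3. All KO libraries were low by a similar amount. The WT mean was 1.95 times the KO mean (log2 difference -0.83, SE 0.08, adjusted p = 0.00078), and the call was kept in all 18 alternatives, with differences from -0.95 to -0.80. Rgs3 spans 144 kb with 17 annotated transcripts, and its single value cannot say which of them changed.

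Rgs4 and Rgs16 complete the R4 members. Rgs4, which acts on Gi, Go and Gq and is known to restrain muscarinic signalling in beta cells, was at 56.5, 61.3 and 61.8 FPKM in WT and at 69.1, 86.6 and 63.0 in KO replicates 1 to 3. Every KO library was above every WT library, the nearest pair by little, and the difference did not pass (0.27, SE 0.12, adjusted p = 0.1). It passed without KO replicate 3 (0.37, adjusted p = 0.04) and with array weights (0.31, adjusted p = 0.048). Rgs16, known from endocrine progenitors and from islets under high glucose, was at 34.7, 29.8 and 37.4 FPKM in WT and at 24.3, 26.7 and 29.9 in KO. The lowest WT library lay just under the highest KO library, so the groups overlapped. Its log2 difference of -0.32 (SE 0.10) passed with an adjusted p of 0.047. That call was lost without WT replicate 1 (adjusted p = 0.14), WT replicate 3 (0.15), KO replicate 1 (0.088) or KO replicate 2 (0.11), and with no filter on low values (0.073). KO replicate 1 by itself gave -0.46 (adjusted p = 0.041).

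The RefSeq promoter table (build GRCm38.p6) held 14 annotated starts for the 10 genes. The 250 bases before the start are shown for Rgs2 and Rgs17, the members that rose, for both starts of Rgs3, the largest fall, and for Rgs4, the most abundant member. The strings run 5′ to 3′ on the gene's strand. The Rgs2 window is chr1:144004150-144004399 (minus strand) and that of Rgs4 is chr1:169747643-169747892 (minus). The Rgs17 window is chr10:5922401-5922650 (minus), and those of Rgs3 are chr4:62559597-62559846 and chr4:62619422-62619671 (both plus). Capitals mark matches on either strand to 7 motifs: the cAMP response element (CRE) TGACGTCA and its half-site TGACG, which the full element contains, the AP-1 element TGANTCA, the E-box CACGTG, the NBRE AAAGGTCA, the EGR element GCGTGGGCG and the TATA box TATAAA.
Rgs2: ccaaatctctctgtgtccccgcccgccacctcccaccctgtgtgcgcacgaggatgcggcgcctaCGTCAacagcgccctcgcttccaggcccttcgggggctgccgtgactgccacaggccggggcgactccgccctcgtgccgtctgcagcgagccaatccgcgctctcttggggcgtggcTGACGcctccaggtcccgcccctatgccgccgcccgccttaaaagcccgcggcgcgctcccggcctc
Rgs4: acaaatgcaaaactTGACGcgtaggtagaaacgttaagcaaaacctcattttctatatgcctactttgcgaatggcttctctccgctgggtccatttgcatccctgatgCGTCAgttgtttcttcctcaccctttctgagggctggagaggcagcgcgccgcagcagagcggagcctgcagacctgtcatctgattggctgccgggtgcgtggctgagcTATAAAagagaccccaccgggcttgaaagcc
Rgs17: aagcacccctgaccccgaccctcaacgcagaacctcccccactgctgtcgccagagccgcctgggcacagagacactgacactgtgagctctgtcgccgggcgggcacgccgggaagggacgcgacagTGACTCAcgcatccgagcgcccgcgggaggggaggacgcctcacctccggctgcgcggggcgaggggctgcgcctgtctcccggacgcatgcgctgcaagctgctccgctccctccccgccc
Rgs3, upstream start: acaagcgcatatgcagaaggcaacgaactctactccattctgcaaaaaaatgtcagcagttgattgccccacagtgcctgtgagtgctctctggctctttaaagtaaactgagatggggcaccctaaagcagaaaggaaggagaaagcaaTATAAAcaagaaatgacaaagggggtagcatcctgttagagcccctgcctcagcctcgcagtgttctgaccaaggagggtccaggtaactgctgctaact
Rgs3, downstream start: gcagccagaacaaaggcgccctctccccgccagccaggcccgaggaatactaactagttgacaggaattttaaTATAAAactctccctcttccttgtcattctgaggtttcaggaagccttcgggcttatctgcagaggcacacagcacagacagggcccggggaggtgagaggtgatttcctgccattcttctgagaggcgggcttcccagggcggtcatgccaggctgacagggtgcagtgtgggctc

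The Rgs2 and Rgs4 windows each held 2 CRE half-sites, the first letters of which lie 185 and 67 bases before the Rgs2 start and 236 and 141 bases before the Rgs4 start. A half-site was in 17.8% of all 32851 windows of this length, and in 3 of the 14 member windows, the other being the downstream start of Rgs12. The Rgs17 window held 1 AP-1 match, 122 bases before the start. An AP-1 match was in 6.75% of all windows and in 2 of the 14 member windows. The other was the downstream start of Rgs12, at 22 bases. An E-box was in the Rgs7 window alone, 29 bases before the start, and in 6.02% of all windows. Rgs4 had a TATA box match 31 bases before its start, and both Rgs3 windows had one farther upstream, at 100 and 177 bases. Rgs9 had one at 195 bases. Such a match was in 12.4% of all windows. The full CRE (1.55% of all windows), the NBRE (1.34%) and the EGR element (0.536%) were in none of the 14 member windows. These are matches of letters and say nothing on binding.

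Both R7 members fell. R7 proteins act on Gi and Go subunits and are best known from neurons, Rgs9 from photoreceptors and striatum. Rgs9 was at 17.7, 15.3 and 16.7 FPKM in WT and at 13.1, 10.5 and 11.2 in KO replicates 1 to 3. Every KO library was below every WT library. The log2 difference was -0.48 (SE 0.09, adjusted p = 0.0079), and KO replicate 1 by itself gave -0.32 (adjusted p = 0.054). Rgs7 was at 8.83, 8.48 and 7.59 FPKM in WT and at 6.58, 6.54 and 6.14 in KO, again without overlap (-0.32, SE 0.07, adjusted p = 0.013). The Rgs7 call was lost when WT replicate 1 was left out (-0.28, adjusted p = 0.06), for KO replicate 1 by itself (-0.29, adjusted p = 0.079) and in the acinar covariate fit (-0.29, adjusted p = 0.053). KO replicates 2 and 3 are the libraries with high acinar sums, and their part in the Rgs7 and Rgs9 differences was not tested further.

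Of the other R7 genes, Rgs11 was at 16.8, 11.1 and 13.7 FPKM in WT and 15.7, 22.3 and 15 in KO, with overlap (0.33, adjusted p = 0.18). It stood close to Rgs9 in WT islets, with an Rgs9 to Rgs11 ratio of 1.06 to 1.38 there and 0.47 to 0.833 in KO. Rgs6 was at or under 0.102 FPKM in all libraries. Of the 5 genes for R7 partners, 3 were tested. Rgs7bp, whose product anchors R7 proteins at the membrane, rose from 2.52, 3.23 and 2.73 FPKM in WT to 5.45, 4.30 and 4.94 in KO (log2 difference 0.62, SE 0.11, adjusted p = 0.0055). The obligate partner Gnb5 (17.2 ± 1.08 and 15.6 ± 2.42 FPKM in WT and KO, n = 3 each, adjusted p = 0.31) and the R7-binding receptor Gpr158 (16.3 ± 0.631 and 18.2 ± 1.47, adjusted p = 0.14) did not pass. Rgs9bp and Gpr179, the retinal anchors, were under 0.7 FPKM. The within-library ratio of Rgs7bp to the sum of Rgs7 and Rgs9 was 0.0951 to 0.136 in WT and 0.253 to 0.284 in KO. These are quantities that moved in opposite directions. Rgs11 (means of 13.8 FPKM in WT and 17.7 in KO) is left out of that sum, so the ratio does not cover all R7 transcripts.

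The RZ genes are known for action on Gz and Gi. Rgs17 was at 1.30, 1.27 and 1.17 FPKM in WT and at 2.84, 2.52 and 2.12 in KO replicates 1 to 3. All KO libraries were higher, and the lowest KO library was the one with the fewest fragments per FPKM. The KO mean was 2 times the WT mean, and the log2 difference of 0.63 (SE 0.10, adjusted p = 0.0049) understates this ratio because the added 1 is close to the level itself. With a pseudocount of 0.1 the difference was 0.94. Rgs17 passed in all 17 alternatives in which it could be tested, and in KO replicate 1 alone the difference was 0.77 (adjusted p = 0.0043). Rgs19, also called GAIP, was at 2.27, 2.02 and 2.1 FPKM in WT and at 2.16, 4.12 and 2.17 in KO. KO replicates 1 and 3 lay within the WT range and KO replicate 2 lay far above it (0.25, adjusted p = 0.32). Without KO replicate 2 the difference was 0.02. Rgs20, the other RZ gene, was at or under 0.352 FPKM in every library.

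The R12 genes were low. Rgs10, known mainly from microglia and other immune cells, was at 1.99, 1.84 and 1.99 FPKM in WT and at 1.95, 3.18 and 1.04 in KO replicates 1 to 3. The KO libraries lay on both sides of the WT libraries (log2 difference -0.01, SE 0.24, adjusted p = 0.99). Rgs12, a large protein that adds PDZ, Ras-binding and GoLoco domains, had a mean of 0.922 FPKM and so was under the filter. It was at 1.02, 0.997 and 1.12 FPKM in WT and at 0.928, 0.705 and 0.761 in KO, without overlap, and with no filter its log2 difference was -0.19 (adjusted p = 0.1). Rgs14 was under 0.4 FPKM throughout, at 0.0501 to 0.0707 in WT and 0.194, 0.376 and 0.0943 in KO.

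**Figure D2:**
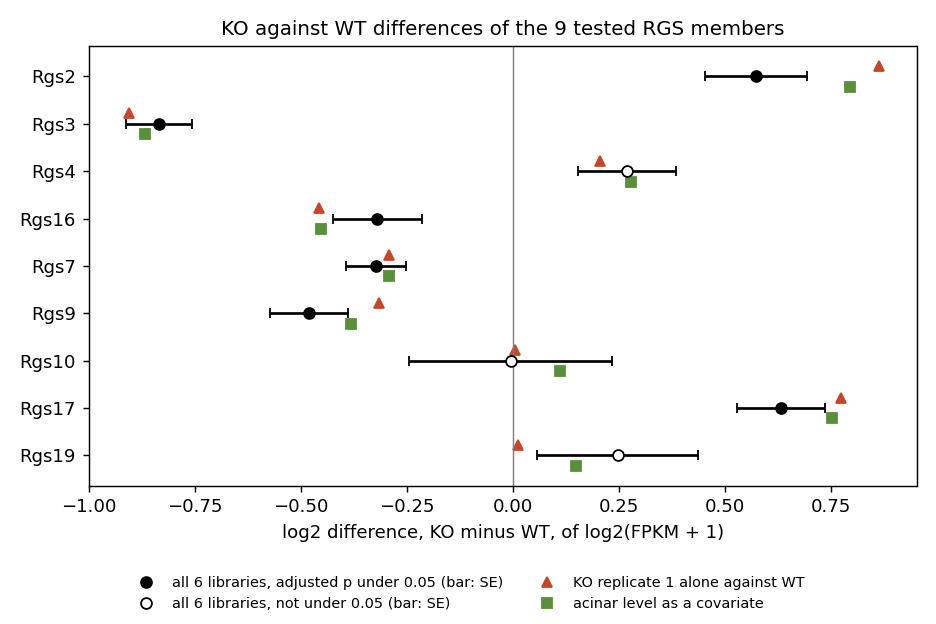
Log2 differences (KO minus WT, on log2(FPKM + 1), x axis) of the 9 tested RGS genes. Circles with SE bars are from all 6 libraries and filled where the adjusted p was under 0.05, triangles are KO replicate 1 alone against WT, and squares have the acinar level as a covariate. Rgs2 lies farther from 0 under both of those than in all 6 libraries (0.86 and 0.80 against 0.57), and Rgs9 nearer (-0.32 and -0.38 against -0.48).

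KO replicate 1 alone, a single library taken to vary like WT, called 4 of the 9 genes (Rgs2, Rgs3, Rgs16 and Rgs17), where 26.1% of all tested genes were called. The covariate fit called those 4 and Rgs9, where 25.8% of all tested genes were called. Both fits use libraries of the whole comparison and are not separate checks. In both, all 6 genes called in the whole comparison kept their direction.

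Ratios between members within a library do not depend on how libraries were scaled. They were chosen after the values were seen and are given without a test. Rgs2 stood at 3.73 to 4.12 times Rgs3 in the WT libraries and at 14.9, 9.56 and 10.5 times in KO replicates 1, 2 and 3. The ratio of Rgs2 to Rgs16 was 0.964 to 1.21 in WT and 1.56 to 2.70 in KO. These are near-equal transcripts in WT islets, and Rgs2 was the higher one in every KO library. Rgs17 stood at 0.121 to 0.145 times Rgs3 in WT and at 0.475 to 0.642 times in KO. The ratio of Rgs2 to Rgs4 spanned 0.583 to 0.618 in WT, and the KO libraries had 0.95, 0.576 and 0.742, so KO replicate 2 lay below the WT range and the groups overlapped. As a share of the members' summed FPKM, Rgs2 went from 21% ± 0.635 to 29.2% ± 4.6, Rgs3 from 5.39% ± 0.111 to 2.55% ± 0.203 and Rgs16 from 20.0% ± 1.76 to 14.7% ± 2.72 (mean ± SD, n = 3 per group).

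**Figure D3:**
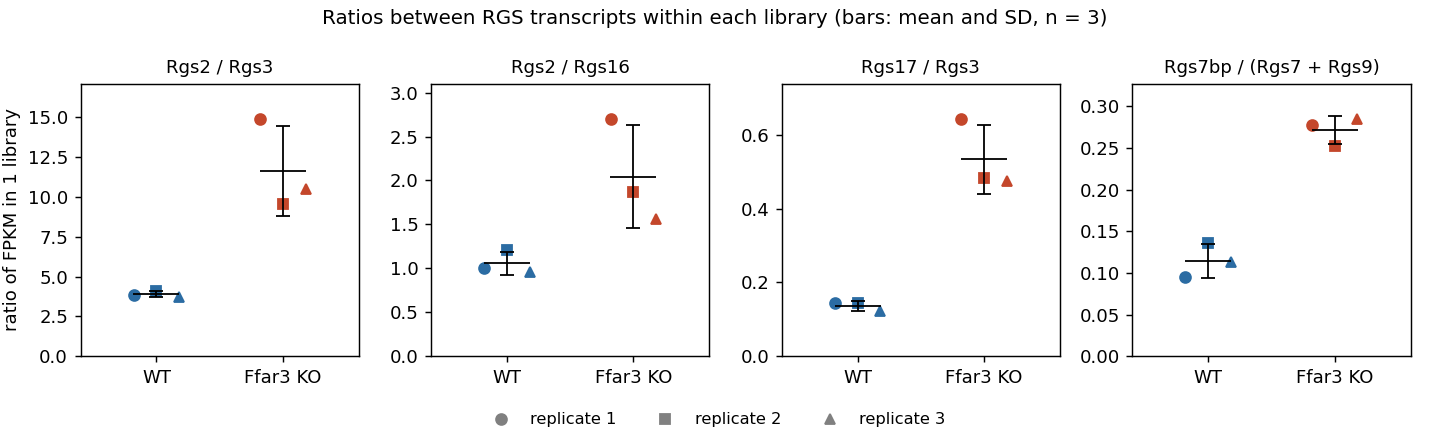
Ratios of FPKM within each library (y axes, from 0) for Rgs2 to Rgs3, Rgs2 to Rgs16, Rgs17 to Rgs3 and Rgs7bp to the sum of Rgs7 and Rgs9, with WT in blue, KO in red and bars for mean and SD (n = 3). The groups do not overlap in any of the 4, and Rgs2 to Rgs3 is near 4 in every WT library and at least 9.56 in every KO library. The sum of Rgs7 and Rgs9 leaves out the R7 gene Rgs11.

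The remaining 11 RGS genes (Rgs1, Rgs5, Rgs6, Rgs8, Rgs11, Rgs13, Rgs14, Rgs18, Rgs20, Rgs21 and Rgs22) gave 10 rows. Of these, 3 were tested and 0 passed in limma, where 39.9% of all tested genes were called. None of those 3 was under 0.05 before adjustment either. Rgs5, a gene of pericytes, was at 26 to 27.6 FPKM in WT and 24.6 to 30.9 in KO (log2 difference 0.01, SE 0.09, adjusted p = 0.91). Rgs1, a gene of lymphocytes, was at 5.48, 4.37 and 5.16 FPKM in WT and at 4.48, 10.9 and 2.96 in KO replicates 1 to 3 (0.09, adjusted p = 0.86). Rgs13, a B cell gene, had 0.272 FPKM in KO replicate 1 and 0.329 in KO replicate 2 and was listed at 0 elsewhere.

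KO replicate 2 was the highest library for the members Rgs4, Rgs10 and Rgs19 and for Rgs1, Rgs6, Rgs11, Rgs13, Rgs14 and Rgs18. It also had the highest sums of lymphocyte markers (99.4 FPKM) and of 10 myeloid markers (197 FPKM, against 126 in KO replicate 1, 75.3 in KO replicate 3 and 96.1 to 107 in the WT libraries). Lyz2 gave 94.8 FPKM of that myeloid sum, against 9.51 to 11.5 in WT. Ptprc and Cd68 were also highest in KO replicate 2 (6.64 and 8.01 FPKM). Of the myeloid markers 9 were tested, 0 rose and 1 fell (C1qa, 42.5 FPKM in KO replicate 2 and 51.5 to 58.8 in WT). Of the 10 lymphocyte markers, 7 were tested and 3 rose, where 20.3% of all tested genes rose. All 7 lay higher in each KO library, and 56.3% of all tested genes had no overlap in either direction. The B cell marker Ms4a1 and the T cell markers Cd3d and Cd3e were listed at 0 in all WT libraries. In KO replicate 1 the lymphocyte sum was 42.8 FPKM, while Rgs10 was at 1.95 FPKM there (WT mean 1.94) and Rgs19 at 2.16 (WT mean 2.13). KO replicate 3 had the lowest Rgs1 and Rgs10 values and the lowest myeloid sum. The part of immune cells in these values was not tested further.

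**Figure D4:**
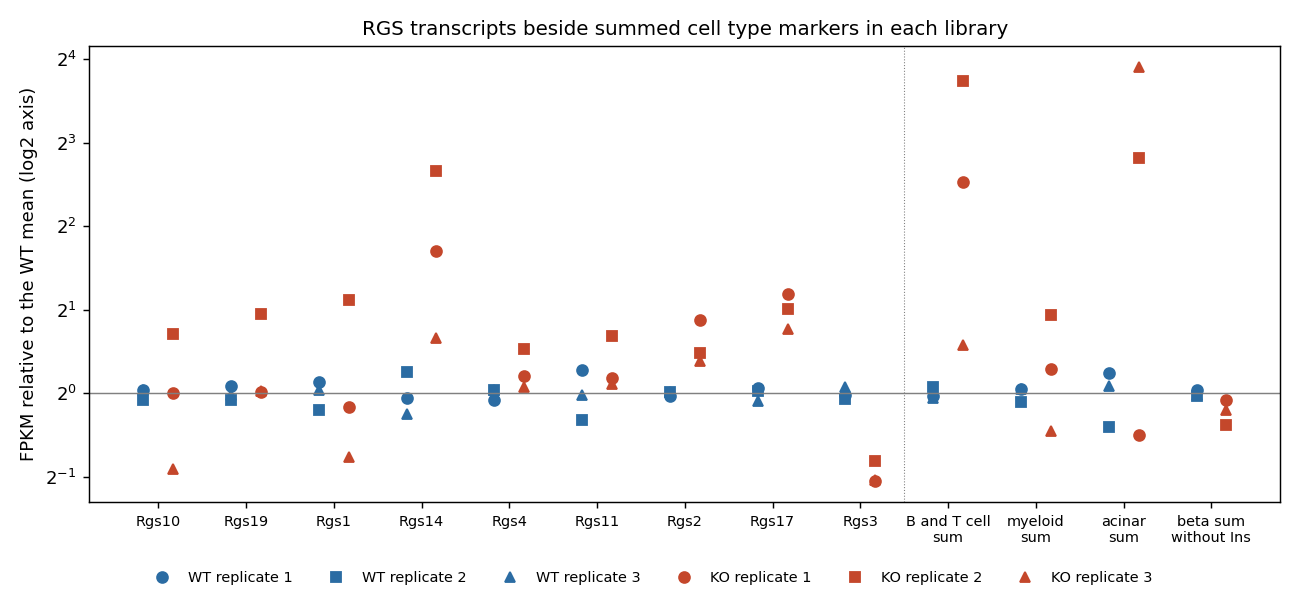
FPKM of 9 RGS genes and summed FPKM of 4 marker lists in each library, divided by the WT mean (log2 y axis), with WT in blue, KO in red and a symbol for each replicate number. KO replicate 2 is highest for Rgs10, Rgs19, Rgs1, Rgs14, Rgs4 and Rgs11 and for both immune marker sums. In WT the B and T cell sum is mostly Cd79a. Rgs2 and Rgs17 are highest and Rgs3 is lowest in KO replicate 1, where the acinar sum was below the WT range.

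Islet cell markers are set beside the members, none of which these whole-islet libraries assign to a cell type. Summed beta cell markers without Ins1 and Ins2 were 37151 to 38915 FPKM in WT and 35819, 29202 and 32866 in KO replicates 1 to 3. Of 8 such genes 3 fell and 0 rose, where 19.6% of all tested genes were lower and 20.3% higher. Summed alpha cell markers were 20335 to 24520 FPKM in WT and 14021, 9603 and 7526 in KO, with 4 of 8 lower. Summed delta cell markers (5 genes, 3 tested, 1 lower) were 5096 to 5375 FPKM in WT, and the KO libraries had 4640, 2738 and 2582. Rgs3, Rgs7, Rgs9 and Rgs16 lay lower in KO along with these sums. Rgs9 ordered the KO libraries as the beta sum did (KO replicate 2 lowest, then 3, then 1). Rgs7 ordered them as the alpha and delta sums did (KO replicate 3 lowest, then 2, then 1). Rgs16 was lowest in KO replicate 1, as was Rgs3 by little. The beta, alpha and delta sums are each mostly 1 hormone row. Iapp, Gcg and Sst were at 27415, 8534 and 2668 FPKM in KO replicate 2. None of those rows passed in limma (adjusted p = 0.8, 0.07 and 0.084). Of the 3 beta genes that fell, Ucn3 was lowest in KO replicate 2, and Mafa and Nkx6-1 were lowest in KO replicate 3. The part of these cell types in the differences was not tested further. Of 10 pericyte and stellate markers, Rgs5 among them, 7 were tested and 2 fell, and the list's sum was 35.9 to 39.7 FPKM in WT and 28.8 to 39.7 in KO. Rgs5 made up most of that sum. Without it the other 9 markers summed to 9.98 to 12.7 FPKM in WT and 4.24 to 8.78 in KO, so the groups did not overlap.

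The alpha subunits that RGS proteins act on changed in both directions, where 39.9% of all tested genes were called. Of the 5 Gi, Go and Gz genes, Gnaz and Gnai3 rose, Gnai2 and Gnao1 fell and Gnai1 did not pass. Gnaz, the subunit that RZ proteins favour, was at 17, 18.1 and 19.3 FPKM in WT and 28.5, 27.4 and 27.7 in KO (log2 difference 0.60, SE 0.06, adjusted p = 0.00096), and so rose beside Rgs17. Gnai3, the subunit with which Rgs19 was first found to interact, rose from 59.5 ± 2.64 to 85.2 ± 5.10 FPKM (mean ± SD, n = 3). Gnao1, a main R7 substrate, was at 89.6 to 90.0 FPKM in WT and 74.3, 64.3 and 61.7 in KO (-0.43, adjusted p = 0.0067). Gnai2 was at 180 ± 0.458 and 139 ± 12.3 FPKM (-0.37, adjusted p = 0.011), and Gnai1 at 9.59 ± 1.28 and 10.2 ± 1.21 (adjusted p = 0.57). For KO replicate 1 by itself the differences were 0.63 (Gnaz), 0.42 (Gnai3), -0.24 (Gnai2) and -0.27 (Gnao1). These 4 genes passed in the covariate fit, where 25.8% of all tested genes were called. Both fits use libraries of the whole comparison and are not separate checks.

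In the Gq class, on which Rgs2 acts, both tested genes fell slightly. Gnaq was at 21.9 to 22.1 FPKM in WT and 19.4, 16.9 and 18.2 in KO (-0.27, SE 0.06, adjusted p = 0.016), and Gna11 was at 35.8 ± 0.893 and 30.7 ± 1.85 (-0.22, adjusted p = 0.028). Neither passed in KO replicate 1 alone (adjusted p = 0.085 and 0.15). Gna14 and Gna15 were under the filter. Gna13 rose from 11.7 ± 0.705 to 17.2 ± 1.51 FPKM (0.51, adjusted p = 0.0039), while Gnas (785 ± 11.7 and 653 ± 56.3, adjusted p = 0.079) and Gna12 (15.6 ± 0.402 and 15.4 ± 0.602, adjusted p = 0.8) did not pass. Gnal was under the filter.

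Proteins with a GoLoco motif hold Gi subunits in their resting form, as Rgs12 can. Of 5 such genes without an RGS domain, 3 were tested. Gpsm1 fell from 27.4, 19.5 and 24.8 FPKM in WT to 14.4, 14.1 and 14.5 in KO (log2 difference -0.68, SE 0.12, adjusted p = 0.0053). Gpsm2 was at 1.68 ± 0.256 and 2.48 ± 0.588 FPKM (0.37, adjusted p = 0.081) and passed in KO replicate 1 alone (0.58, adjusted p = 0.023). Rap1gap was at 21.1 to 21.7 FPKM in WT and 17.9, 31.5 and 53.9 in KO replicates 1 to 3 (0.52, adjusted p = 0.24), in the order of the acinar sum. It lay at -0.25 in KO replicate 1 alone. Gpsm3 and Pcp2 were under the filter.

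Among receptors that signal through these subunits, more were called lower than higher, where 20.3% of all tested genes were higher and 19.6% lower. The lists are short and were not tested as sets. Of 25 genes of Gi-coupled receptors, 11 were tested, of which 5 fell and 1 rose, and without the targeted Ffar3 it was 4 and 1 of 10. Adra2a, the adrenergic receptor that restrains insulin secretion, was at 85.9, 93.0 and 91.9 FPKM in WT and 63.7, 46.2 and 46.2 in KO (-0.80, SE 0.13, adjusted p = 0.0043). Ffar2 fell from 9.63 ± 0.665 to 4.84 ± 0.311 FPKM and Hcar2, listed as Niacr1, from 11.1 ± 1.10 to 6.66 ± 0.934. Adora1, named as the single rise after its values were seen, went from 6.57 ± 0.209 to 8.64 ± 0.626 FPKM (0.35, adjusted p = 0.0088). Of 13 Gq-coupled receptor genes, 6 were tested, of which 3 fell (Ffar1, Casr and P2ry1) and 1 rose (Bdkrb2). Ffar1 fell from 34.1 ± 2.55 to 14.8 ± 0.764 FPKM. Ffar1 and Ffar2 lie 1.21 and 30.6 kb from the targeted Ffar3 on chromosome 7, and the part of that position in their falls was not tested. Casr was at 19.6 ± 1.34 and 12.9 ± 3.02, P2ry1 at 16.3 ± 0.911 and 11.5 ± 2.77 and Bdkrb2 at 1.36 ± 0.415 and 2.33 ± 0.427 (mean ± SD, n = 3), and in KO replicate 1 alone these 3 did not pass (adjusted p = 0.069, 0.24 and 0.068).

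The genes lie apart in the genome. On GENCODE M21 (GRCm38), Rgs2 (chr1:143999338-144004161) is followed by Rgs13 at 134 kb and Rgs1 at 238 kb, with Rgs21 at 512 kb and Rgs18 at 749 kb. Of this cluster Rgs2 alone passed, Rgs1 did not, Rgs13 and Rgs18 were under the filter and Rgs21 had no row. Rgs16 (chr1:153740349-153745468) lies 40 kb from Rgs8, which was at 0.151 to 0.323 FPKM in all libraries. Rgs4 (chr1:169741477-169747642) lies 45.7 kb from Rgs5, whose WT and KO means differed by 0.01 on the log2 scale. Rgs9 (chr11:109225355-109298129) lies 64.7 kb from Gna13, and the pair moved in opposite directions. Rgs19 (chr2:181688419-181693977) ends 0.348 kb from Tcea2, which fell from 3.16 ± 0.295 to 1.81 ± 0.320 FPKM (-0.57, adjusted p = 0.0084). Rgs7 (chr1:175059087-175492500) and Rgs17 (chr10:5825663-5922400) overlap no annotated gene on the opposite strand, and neither do Rgs2, Rgs4, Rgs9, Rgs10 and Rgs19. On their own strand Rgs7 overlaps 5730408A14Rik, Rgs10 overlaps Gm15503 and Rgs12 overlaps Mir3097. Rgs3 (chr4:62559847-62704001), Rgs16 and Rgs12 (chr5:34949445-35039644) overlap an antisense gene each, and since the strand setting of the counting is not given in the sources used here, reads of those partners cannot be told apart from theirs. Rgs10 is at chr7:128373621-128418758, on the chromosome of Ffar3.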

How the data were processed

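Islet RNA of 3 WT and 3 Ffar3 KO libraries was compared, grouped by the sample titles and genotype labels; the series' design text calls the replicates biological. Reads were aligned to mm10 with TopHat2 2.0.8b and quantified with Cuffdiff 2.1.1, per the submitters' processing notes. The annotation, the strand setting and any scaling across samples are not stated there. The unit of the authors' tables was read as FPKM, since Cuffdiff reports it and the values are decimals with sums from 416935 to 1056344; no header names it. FPKM can depend on the rest of the library. Median-of-ratios factors lay between 0.987 and 1.01 although the sums differed. The values as deposited were thus already close to a common scale across libraries, and how it was set is not stated.

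Genes averaging 1 FPKM or more were tested on log2(FPKM + 1) with limma 3.58.1 in R 4.3.3 (group as the only term, eBayes with a trend, two-sided, 4 residual degrees of freedom, Benjamini-Hochberg), after tests on simulated data. Fits without a library kept the same genes. The RGS genes, the other lists and the alternatives were chosen with earlier results of these data known, and 1 alternative (equal sums outside acinar and insulin rows) after the data were seen. Named are all 10 genes, all tested RGS relatives, and up to 4 genes of smallest p from each other list (all where a list has 5 or fewer), with exceptions said to be so and gene neighbours named for their position. Of 180 list symbols, 179 had a row, 1 of them through a RefSeq synonym. The labels do not say that the replicate number pairs libraries, so it was not taken to pair them. Deviations of same-numbered libraries had correlations of -0.21, -0.09 and 0.03, which cannot exclude a pairing. Promoters came from RefSeq on GRCm38.p6.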

Additional observations from a re-analysis of the deposited data

How the results depend on the processing

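Rgs3 and Rgs17 passed in every alternative in which they could be tested (18 and 17), with adjusted p up to 0.0081 and 0.028, and all 6 called RGS genes kept their direction in every alternative run. Equal sums outside the acinar list gave 1 higher RGS gene in place of 2, and 2957 genes in all in place of 4657, with 1178 higher. With the insulin rows also left out of the sum, 2 RGS genes were higher and 3787 genes were called in all, with 2019 higher. A mean of at least 5 FPKM gave 1 higher RGS gene, because Rgs17 was then not tested. KO replicate 1 alone gave 2 lower RGS genes in place of 4, and 3041 genes in all with 1267 lower, and the acinar covariate gave 3012 with 1318 lower. In KO replicate 1 alone the KO group has no replicate. Leaving out single libraries gave 4 to 7 called RGS genes, 2 of them higher in every fit but that without KO replicate 3 (3), and 2 to 4 lower, with 2 lower without WT replicate 1. Over all genes these fits gave 2481 (without WT replicate 1) to 5727 (without KO replicate 1), with 1381 to 2890 higher and 1100 to 2837 lower.

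The Rgs10 difference of -0.0055 changed sign with median-of-ratios factors (0.0016), equal sums outside acinar and insulin rows (0.0021), array weights (0.042), the covariate (0.11), KO replicate 1 alone (0.0038) and without KO replicate 3 (0.26), WT replicate 1 (0.0075) or WT replicate 3 (0.0065). It ranged from -0.26 to 0.26 over fits without 1 library and did not pass in any alternative run.

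With the replicate number as a block, the same 6 RGS genes were called (2 higher, 4 lower) and 3865 genes in all, so the block changed no call among them. The correlations of the same-numbered libraries ranged from -0.21 to 0.03, and those of other WT and KO pairs from -0.16 to 0.20. Deviations were taken from each group's own mean over few libraries, so these values cannot exclude a pairing. Unknown depth limits Rgs10, Rgs12, Rgs17 and Rgs19, near 1 to 4 FPKM, most in KO replicate 3.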
